A study of Mus musculus with 18 samples.

Results

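Lung epithelial RNA of mice labelled heterozygous for both Foxa2 and Falcor was set against that of mice labelled heterozygous for Foxa2 alone. The comparison takes the 4 libraries labelled Double-Het (Falcor+/-;Foxa2+/-, replicates 15 to 18) and the 4 libraries labelled Foxa2+/- (replicates 11 to 14), chosen by their titles, which are 8 of the 18 libraries of the study. All genes with a mean of at least 6 log2 units over the 18 libraries were compared, and a difference is always the Double-Het mean minus the Foxa2+/- mean. By their labels both groups lack a copy of Foxa2 and differ in the loss of a Falcor copy. No difference in the Falcor level, given below, was detected, so it gives no check of the second label. Wild-type animals (n = 5, replicates 1 to 5) and Falcor-/- animals (n = 5, replicates 6 to 10) serve here as reference values. The ages of 10 to 12 weeks are given with the wild type in the design text, and no separate age is given for the mutant genotypes. No treatment is recorded. Cells bearing the epithelial surface protein EpCAM were pulled from the lung with magnetic beads and their total RNA was sequenced. The labels do not say how the alleles were made, whether animals were pooled, or whether each library came from a separate animal. The limma p-values thus measure the spread between libraries, pooled within genotypes over all 18 and not only over the 8 compared.

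Foxa2 is a forkhead transcription factor that opens chromatin in cells of endodermal origin, and in the lung it is known for restraining mucous cell formation and for supporting surfactant genes. Falcor, a non-coding RNA, comes from the gene next to Foxa2 on chromosome 2, which the annotation calls 9030622O22Rik (ENSMUSG00000086141). The title of the study links it to Foxa2 expression, lung epithelial homeostasis and regeneration, and the comparison asks what a labelled further loss of a Falcor copy goes with in an animal that already lacks a Foxa2 copy.

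Pearson's r across genes was 0.971 to 0.979 between Foxa2+/- libraries, 0.970 to 0.981 between Double-Het libraries and 0.954 to 0.968 between a library of each. Sequencing depth is unknown, because the deposited levels follow almost 1 common distribution. The levels are not divided by gene length, so they are compared for a gene between libraries and never between genes. The epithelial markers stood at high levels in all 8 libraries: Epcam lay at 13.81 to 14.19 in Foxa2+/- and 13.93 to 14.48 in Double-Het, the surfactant gene Sftpc at 18.56 to 18.73 and, in every Double-Het library, 18.73, and the club cell secretoglobin Scgb1a1 at 17.58 to 17.80 and 17.67 to 17.98. Genes of other cell types were read in the bead-captured cells too. The leukocyte surface protein Ptprc (CD45) reached 14.11 to 14.50 in Foxa2+/- and 14.01 to 14.50 in Double-Het, and the endothelial cadherin Cdh5 reached 11.77 to 12.30 and 10.69 to 11.93. In bulk RNA, fewer cells of a type and less RNA per cell cannot be told apart.

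The libraries labelled Double-Het held lower levels of 11 of 30 macrophage genes, 12 of 34 NF-kB target and cytokine genes and 7 of 29 immediate early genes than those labelled Foxa2+/-, and of 19 clock genes 5 rose and 3 fell. The lists of 19 alveolar type 1, 21 alveolar type 2, 20 club cell and 34 junction genes had no member past the threshold. The lists were chosen with earlier results of these data known. Their counts beside the share over all genes, here and below, are thus a description and no test. Of 15249 genes, 370 (2.43%) differed at an adjusted p below 0.05 (limma, Benjamini-Hochberg over all genes), 161 higher in Double-Het (1.06%) and 209 lower (1.37%). The falls were larger than the rises. A change of at least 1 log2 unit, a 2-fold difference, was found for 34 of the genes that rose and 114 of those that fell (148 in all, 0.971%), and a change of at least 2 for 4 and 52. The median change was 0.69 among the genes that rose and -1.09 among those that fell, and the median difference over all genes tested was 0.02. Every Double-Het library lay above every Foxa2+/- library for 159 of the genes that rose, and below for 197 of those that fell, where 6.54% and 5.38% of all genes tested separated in that direction. The count depended on single libraries: it was 90 without Foxa2+/- replicate 13, 130, 152 and 171 without Double-Het replicates 17, 16 and 15, and 183 without Foxa2+/- replicate 14. In all 8 fits that left out a library, 81 of the 370 genes passed, 25 higher and 56 lower.

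**Figure D1:**
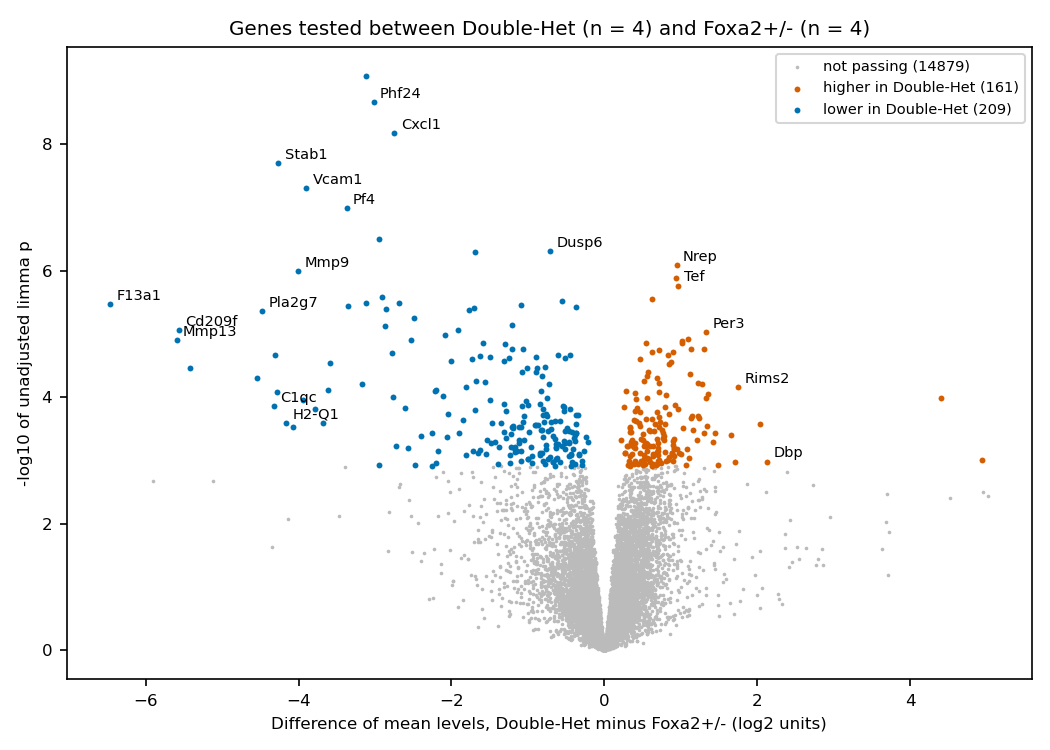
Each point is a gene; the horizontal axis gives the Double-Het minus Foxa2+/- difference in log2 units and the vertical axis the negative log10 of the unadjusted limma p. The 209 genes that were lower (blue) reach to -6.46 for F13a1, while the named genes that were higher (orange) reach 2.13 for Dbp.

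No difference in Foxa2 itself was detected. Its levels were 12.38, 12.38, 12.35 and 12.47 in the 4 Foxa2+/- libraries and 12.58, 12.35, 12.40 and 12.12 in the 4 Double-Het libraries, which overlapped, with a difference of -0.03 (SE 0.11, 95% interval -0.26 to 0.20, limma adjusted p = 0.901, exact two-sided permutation p = 0.743). Both groups lay below the wild-type libraries, which ran from 12.83 to 13.03. None was detected in the Falcor transcript either, although the labels give Double-Het a lost Falcor copy. It stood at 11.46, 11.96, 11.66 and 11.72 in Foxa2+/- and 11.61, 11.65, 11.86 and 11.50 in Double-Het, a difference of -0.04 (SE 0.30, 95% interval -0.68 to 0.60, limma adjusted p = 0.954, exact two-sided permutation p = 0.686). The interval reaches a fall of 0.68 log2 units and not one of 1 log2 unit, a halving. Its SE pools the spread of all 18 libraries, with SDs of 0.15 in Double-Het, 0.21 in Foxa2+/-, 0.48 in wild type and 0.68 in Falcor-/-. In a fit to these 2 genotypes alone the SE was 0.117. Wild-type libraries lay below all 8, at 9.68 to 10.72, and Falcor-/- libraries lower still, at 5.39 to 7.27. The Falcor level thus gives no check of the Falcor+/- label of these libraries, and how a lost copy changes that level was not tested. Double-Het below means the libraries so labelled. The related factors Foxa1 and Foxa3 differed by 0.06 and -0.35 and did not pass. None of the 8 tested genes of the Foxa2 neighbourhood passed in limma, and 2 had an unadjusted p below 0.05, the endothelial genes Cd93 (-1.36, adjusted p = 0.124) and Thbd (-0.98, adjusted p = 0.134).

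F13a1, a macrophage gene, had the largest fall of the named genes. Of 30 macrophage genes tested, 11 fell, none rose and 19 did not pass, where 1.37% of all genes fell; the median difference of the 30 was -0.64 against 0.02 over all genes. Among the 11 are F13a1, C1qc, Ms4a7, C1qa, C1qb, Msr1, Folr2, Cx3cr1, Csf1r and Apoe, which are known from tissue-resident and interstitial macrophages. In each of the 11, all 4 Double-Het libraries lay below all 4 Foxa2+/- libraries, as in 197 of all 209 genes that fell. Genes called on these same libraries mostly separate, so this adds no support.

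F13a1, the A chain of coagulation factor XIII, stood at 12.37, 12.01, 13.09 and 11.61 in Foxa2+/- and 6.35, 5.70, 6.16 and 5.03 in Double-Het. The gap between the groups was wider than the spread inside either, and the difference of -6.46 (SE 0.96, adjusted p = 0.00251) put Double-Het at 1.14% of the Foxa2+/- level. The 3 chains of complement C1q, the recognition part of the classical complement cascade, lie side by side on chromosome 4 and fell together. C1qc read 13.51, 13.23, 13.69 and 12.90 against 9.45, 9.06, 8.70 and 8.82, a difference of -4.32 (SE 0.88, adjusted p = 0.0184), and C1qa and C1qb differed by -3.79 and -3.69. Folr2, the folate receptor of resident macrophages, lay at 8.71 to 10.75 in Foxa2+/- and 6.36 to 6.93 in Double-Het (-3.17, adjusted p = 0.0113). The scavenger receptor Msr1 was low in Double-Het replicates 15 to 17, at 5.27 to 5.92, and less so in replicate 18, at 8.19, which still lay under the lowest Foxa2+/- value of 9.30. Csf1r, the receptor for the macrophage growth factor CSF-1, read 14.37, 14.27, 14.72 and 13.84 against 12.98, 13.01, 12.95 and 12.99, a difference of -1.32 (SE 0.27, adjusted p = 0.0178). The smallest of the 11 falls was that of Apoe, the lipid carrier, at -0.78 (SE 0.14, adjusted p = 0.00774).

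Not every macrophage gene moved. The pan-leukocyte gene Ptprc and the lysosomal macrophage gene Cd68 each differed by -0.08, with adjusted p values of 0.831 and 0.867. Genes known from alveolar macrophages, the macrophages of the air spaces, had no member past the threshold among Marco, Siglecf, Chil3, Ear1, Fabp4, Fabp1, Krt79, Ctsk, Plet1 and Itgax. Their levels were scattered inside Double-Het: Chil3 was at 10.86, 15.09, 12.38 and 15.30 there and at 12.56, 13.10, 12.71 and 13.89 in Foxa2+/-, and Marco at 6.73, 9.54, 8.03 and 11.39 and 8.75, 9.21, 7.43 and 9.22. Replicates 16 and 18 held the higher values of both genes and replicates 15 and 17 the lower ones. Trem2, Cd163, Adgre1 and Itgam lay below Foxa2+/- in all 4 Double-Het libraries without passing (-2.17, -1.87, -1.14 and -0.46). Of the 30 macrophage genes, 20 had a negative difference, 15 of them without overlap, and 10 a positive one, 2 of them without overlap. Among all genes tested, 5.38% lay lower and 6.54% higher without overlap.

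The mean level of the 30 macrophage genes was 11.66 to 11.74 in Foxa2+/- and 9.99 to 11.14 in Double-Het, against 11.34 to 12.15 in wild type and 9.70 to 11.93 in Falcor-/-. No macrophage gene sat at the lowest level in the files, 1, in these 8 libraries. Yet F13a1 and Ms4a7 had Double-Het means of 5.81 and 4.94. Both lay under the minimum of 6, which these genes passed through libraries of other genotypes. The Falcor-/- libraries split: F13a1 ran from 4.81 to 10.87 there, with low values of the C1q genes in replicates 6, 8 and 10 and values near the wild type in replicates 7 and 9. Fewer macrophage genes passed without Foxa2+/- replicate 13 (4) and without Double-Het replicate 17 (5). F13a1, Apoe and Folr2 passed in all 8 fits that left out a library, and the highest adjusted p of any of the 11 was 0.103, for Cx3cr1 without Foxa2+/- replicate 13.

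**Figure D2:**
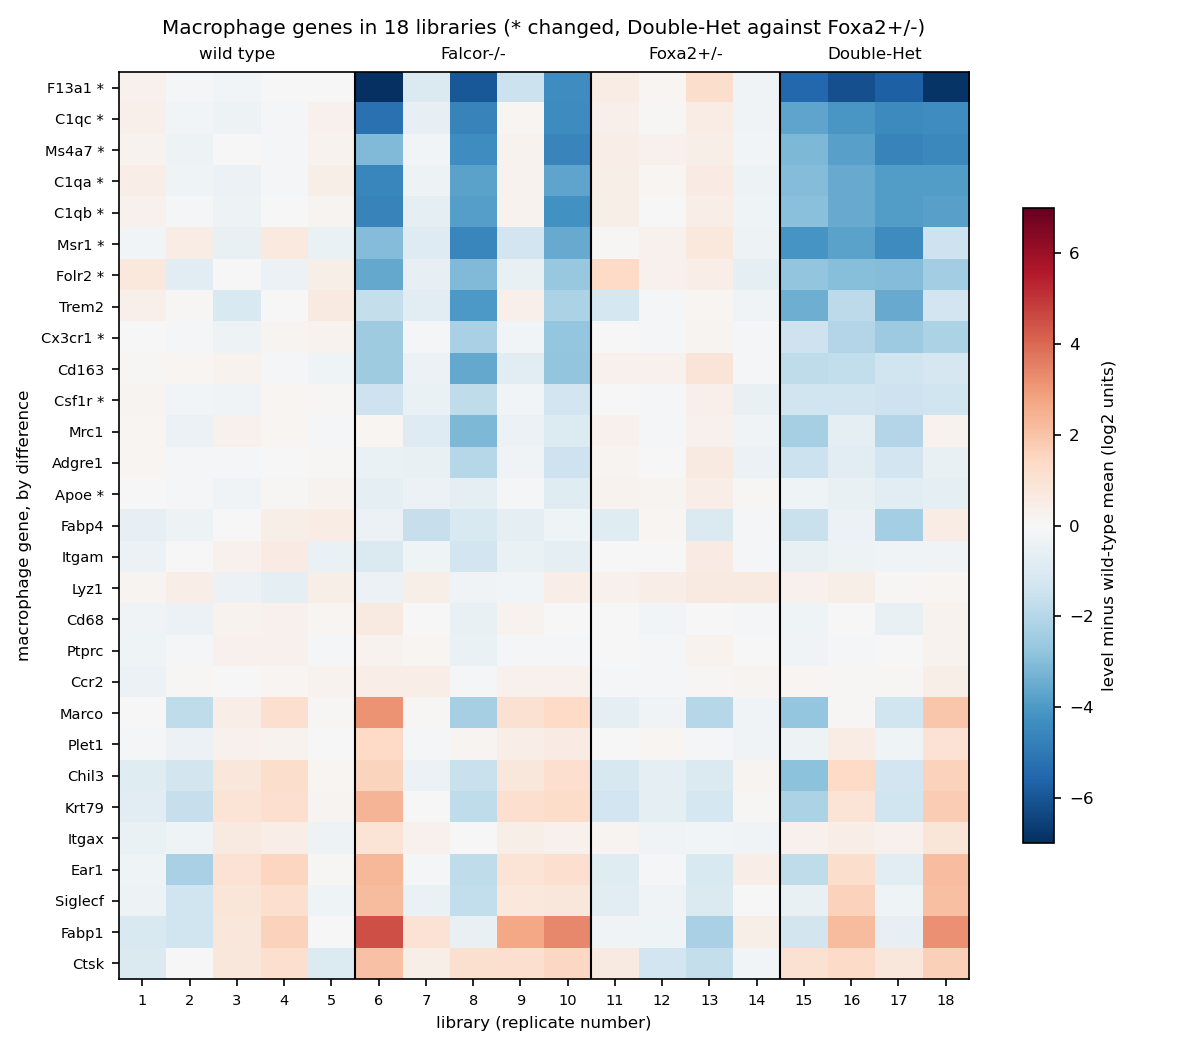
Rows are 29 of the 30 macrophage genes ordered by the Double-Het minus Foxa2+/- difference, columns are the 18 libraries by replicate number, and the colour is the level minus the wild-type mean in log2 units (blue, lower). The 10 genes marked with a star fell; the alveolar macrophage genes at the bottom vary between libraries of the same genotype.

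Several of the steepest falls outside the macrophage list were in genes also known from macrophages. Stab1, a scavenger receptor of macrophages and some endothelium, stood at 13.63, 13.57, 14.13 and 13.17 in Foxa2+/- and 9.48, 8.82, 9.31 and 9.82 in Double-Het, a difference of -4.26 (SE 0.43, adjusted p = 7.67e-05) that left 5.21% of the Foxa2+/- level. Pf4, a chemokine of platelets and some macrophages from the list of red cell and platelet genes, read 10.46, 10.18, 10.16 and 9.86 against 7.35, 6.58, 6.72 and 6.53 (-3.37, SE 0.38, adjusted p = 0.000258). It was the only one of the 7 tested members of that list to pass, but all 7 differences were negative, with a median of -0.38, and the list mean was 6.90 to 7.25 in Double-Het against 7.80 to 8.47 in Foxa2+/-. Mmp9, a gelatinase of neutrophils and macrophages, fell, with levels of 9.54 to 9.82 in Foxa2+/- and 4.75 to 6.35 in Double-Het (-4.0, adjusted p = 0.00139), and no other of the 10 tested granulocyte genes passed. The Double-Het mean of Mmp9, 5.63, lay under the minimum of 6, which this gene passed through libraries of other genotypes. The granulocyte list had the lowest median of the lists, -0.97, with 8 of 10 differences negative, and its mean was 7.88 to 8.74 in Double-Het against 8.59 to 9.77 in Foxa2+/-, which overlapped. The granulocyte receptor Csf3r lay below Foxa2+/- in all 4 Double-Het libraries without passing (-1.76, adjusted p = 0.0978). The part of granulocytes and platelets in these results was not tested. Lyve1, a hyaluronan receptor of lymphatic endothelium and of a class of macrophages, fell by 2.18 on the log2 scale (adjusted p = 0.0385) as the only one of 30 endothelial genes, and failed in 7 of the 8 fits that left out a library, with an adjusted p of up to 0.123. Of the 30, 26 had a negative difference, 6 of them without overlap, and the median was -0.34. Among all genes tested, 54.2% had a positive difference and 5.38% lay lower without overlap.

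Other large falls were of Mmp13, a collagenase (-5.59, 9.60 to 10.45 against 3.93 to 4.49, adjusted p = 0.0053), and of Cxcl13, the chemokine that draws B cells (-5.42, 9.25 to 9.96 against 3.93 to 4.83, adjusted p = 0.00778). The secreted phospholipases Pla2g2d and Pla2g7, the second of which breaks down platelet-activating factor, differed by -4.55 and -4.47. Aoah, which deacylates bacterial lipopolysaccharide, differed by -4.31 (adjusted p = 0.00627), with 1.31 in Double-Het replicate 17 and 4.41 to 4.83 in the other 3. The lectin gene Cd209f, of a family with near copies whose reads can be shared, differed by -5.56 (adjusted p = 0.00427). The Double-Het means of Mmp13, Cxcl13, Pla2g2d, Aoah and Cd209f were 4.28, 4.26, 3.27, 3.76 and 3.18. They lay under the minimum of 6, which these genes passed through libraries of other genotypes. Vcam1, an adhesion molecule for leukocytes, was at 11.65, 11.16, 11.40 and 10.35 in Foxa2+/- and 8.11, 7.21, 6.86 and 6.80 in Double-Het, a difference of -3.90 (SE 0.42, adjusted p = 0.00015). Wild-type libraries held Vcam1 at 10.40 to 11.21, inside the Foxa2+/- range. Phf24, a gene known from brain, had the smallest p of any gene but the pseudogene Vcp-rs, which is given in the closing section: it read 9.91, 10.78, 10.92 and 10.79 against 7.80, 7.63, 7.54 and 7.36, a difference of -3.02 (SE 0.26, adjusted p = 1.66e-05), with 11.43 to 12.65 in wild type and 10.82 to 11.89 in Falcor-/-. For Phf24, Double-Het thus stood apart from the other 3 genotypes. Mmp13, Cxcl13, Aoah, Stab1, Vcam1 and Phf24 passed in all 8 fits that left out a library.

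Chemokine and NF-kB feedback genes were the next large group. NF-kB is a family of transcription factors that epithelial and immune cells activate in answer to microbes and cytokines; its targets include chemokines that draw neutrophils and monocytes, and inhibitors that switch it off again. Of 34 tested genes of this list, 12 fell, none rose and 22 did not pass, where 1.37% of all genes fell. The median difference was -0.58. The mean level of the list was 11.68 to 11.99 in Foxa2+/- and 10.91 to 11.15 in Double-Het, with 11.17 to 11.54 in wild type and 11.32 to 11.53 in Falcor-/-. Double-Het thus lay under, and Foxa2+/- over, the libraries of both reference genotypes.

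Cxcl1, a neutrophil chemokine, stood at 10.87, 10.45, 11.49 and 11.24 in Foxa2+/- and 7.80, 8.60, 8.31 and 8.35 in Double-Het. The groups were separated by more than their spread, with a difference of -2.75 (SE 0.26, adjusted p = 3.39e-05) that left 14.9% of the Foxa2+/- level. Wild-type libraries ran from 9.12 to 10.17 and Falcor-/- libraries from 8.78 to 9.65, between both groups without overlap. Cxcl2, its close relative next to it on chromosome 5, read 12.57, 12.10, 12.90 and 12.35 against 9.58, 10.38, 9.03 and 10.98 (-2.48, SE 0.38, adjusted p = 0.00321). Cxcl5, another neutrophil chemokine of that cluster, fell by 2.94 on the log2 scale with an adjusted p of 0.0498, just inside the threshold, and failed in all 8 fits that left out a library. Wild-type Cxcl5 itself ran from 6.66 to 9.73. Saa3, an acute phase protein, fell, with levels of 8.92 to 10.92 in Foxa2+/- and 6.86 to 8.06 in Double-Het (-2.86, adjusted p = 0.00251), and the monocyte chemokine Ccl2 with levels of 10.15 to 10.41 and 8.88 to 9.42 (-1.06, adjusted p = 0.00596).

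Several inhibitors of the pathway fell too, while Nfkbie (-0.39) and Nfkbib (-0.04) did not pass. Nfkbia, which holds NF-kB in the cytoplasm, was at 15.16, 14.82, 14.94 and 14.94 in Foxa2+/- and 14.32, 14.30, 14.10 and 13.89 in Double-Het (-0.81, SE 0.15, adjusted p = 0.00956). Tnfaip3, the ubiquitin-editing enzyme A20, read 14.82, 14.29, 14.67 and 14.71 against 13.54, 13.43, 13.51 and 13.20 (-1.20, SE 0.27, adjusted p = 0.026), while wild type spread from 13.11 to 14.78. Birc3, an inhibitor of apoptosis, differed by -0.55 with a narrow spread, 13.28 to 13.42 against 12.73 to 12.89 (adjusted p = 0.00251). Its wild-type libraries, at 12.78 to 13.12, and its Falcor-/- libraries, at 12.66 to 12.98, overlapped Double-Het and lay under all Foxa2+/- libraries. Nfkbiz (-0.91), Ptgs2, which makes prostaglandin precursors (-1.19), Csf1, the macrophage growth factor (-0.85), and Bcl3 (-0.58) fell with adjusted p values of 0.0258, 0.0259, 0.04 and 0.0476. The subunits of NF-kB itself did not pass: Rela differed by -0.04, Nfkb1 by 0.05, Relb by -0.24, Nfkb2 by -0.29 and Rel by -0.58. Il6, Tnf and Il1b did not pass either (-0.89, -0.36 and -1.09).

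The regions before the start sites of 4 genes of this group are shown because their genes fell together and hold a match to an NF-kB motif. They are RefSeq start sites on GRCm38.p6, 250 bases each in 5′ to 3′ direction of the gene, with the match in capitals: Cxcl1 at chr5:90890995-90891244 (+ strand), Cxcl2 at chr5:90903649-90903898 (+ strand), Nfkbia at chr12:55492648-55492897 (- strand) and Tnfaip3 at chr10:19015411-19015660 (- strand, the first of 2 listed starts).
Cxcl1: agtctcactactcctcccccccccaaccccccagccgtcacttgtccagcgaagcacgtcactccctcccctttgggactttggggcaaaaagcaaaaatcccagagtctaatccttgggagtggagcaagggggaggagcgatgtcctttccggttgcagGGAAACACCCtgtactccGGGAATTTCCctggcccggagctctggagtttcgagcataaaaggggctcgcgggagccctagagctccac
Cxcl2: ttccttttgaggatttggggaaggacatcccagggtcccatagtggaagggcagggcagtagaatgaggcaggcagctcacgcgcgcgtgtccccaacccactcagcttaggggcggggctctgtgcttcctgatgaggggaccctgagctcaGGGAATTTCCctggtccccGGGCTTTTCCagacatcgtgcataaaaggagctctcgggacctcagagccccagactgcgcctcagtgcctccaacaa
Nfkbia: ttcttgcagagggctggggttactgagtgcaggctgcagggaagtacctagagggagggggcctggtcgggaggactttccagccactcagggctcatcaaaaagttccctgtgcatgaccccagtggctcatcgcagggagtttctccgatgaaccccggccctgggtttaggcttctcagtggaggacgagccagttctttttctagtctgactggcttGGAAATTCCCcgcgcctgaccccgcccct
Tnfaip3: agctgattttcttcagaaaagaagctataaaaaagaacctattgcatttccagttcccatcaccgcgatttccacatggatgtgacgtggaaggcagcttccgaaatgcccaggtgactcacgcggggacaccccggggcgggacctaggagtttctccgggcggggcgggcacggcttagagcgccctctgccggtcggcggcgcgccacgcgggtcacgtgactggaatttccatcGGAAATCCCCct
The motif searched was GGG followed by any 2 bases and TTTCC, on both strands. In Cxcl1 the matches lay at bases -89 to -80 and -71 to -62 from the start site, in Cxcl2 at -97 to -88 and -78 to -69, in Nfkbia at -29 to -20 and in Tnfaip3 at -12 to -3. No match overlapped another. Of the 12 genes that fell, 9 had a RefSeq entry and 5 of them a match (the 4 shown and Csf1), as did 4 of 20 entries among the 22 genes that did not pass (Ccl20, Il6, Nfkb2 and Rel) and 1.41% of all 32851 regions of that length. Listed genes were counted over all their starts and the 1.41% over single regions, so the units differ. The list was made of NF-kB targets and cytokines, so a share above 1.41% is no result about the falls. A match is a run of letters and was not tested as a binding site.

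Of the 12, Cxcl1, Cxcl2, Saa3, Ccl2, Nfkbia and Birc3 passed in all 8 fits that left out a library. The count of the list was 6 without Foxa2+/- replicate 13 or without Double-Het replicate 16 or 17, and 7 without Foxa2+/- replicate 11 or Double-Het replicate 18. Macrophages express many of these genes, and the macrophage mean given above moved with them across the 2 genotypes. With that mean as a covariate, an alternative added after the data were seen, Cxcl1 still differed by -2.37 (adjusted p = 0.00526) and was the only one of the 34 to pass. The macrophage means of the 2 groups did not overlap, and 54.1% of the variance of that mean lay between the 4 genotypes. With that covariate limma called 0 of the 30 macrophage genes (21 at an unadjusted p below 0.05). The covariate is the mean of these same 30 genes, so the loss of their calls was largely built in. The part of macrophages in the falls of the NF-kB list was not tested beyond this fit.

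**Figure D3:**
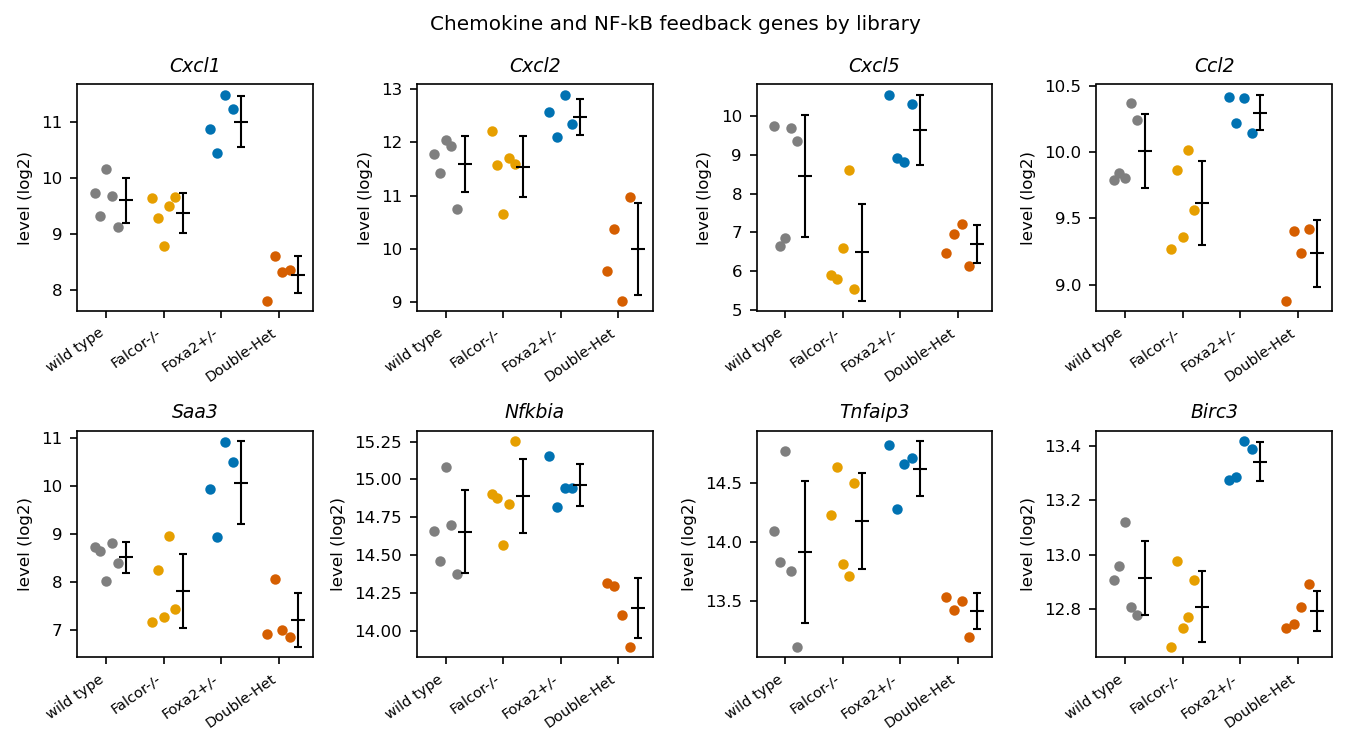
Each panel is a gene and each point a library, with the level in log2 units on the vertical axis and the genotype on the horizontal axis; the bar and whiskers beside the points are the mean and SD. In all 8 genes the 4 Double-Het libraries (right) lie below the 4 Foxa2+/- libraries.

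Clock genes moved in both directions. The circadian clock is a feedback loop in which Arntl (BMAL1) with Clock or Npas2 drives genes whose products, among them the Per and Cry proteins, repress it within a day. Of 19 clock genes, 5 rose (among them Dbp, Per3, Bhlhe41 and Tef), 3 fell (Arntl, Npas2 and Nfil3) and 11 did not pass. Over all genes 1.06% rose and 1.37% fell. The median difference of the clock genes was 0.24. Dbp, Per3, Bhlhe41 and Tef lie on the output and repressor side of the loop. The time of day at which the animals were taken is not given in the sources used here.

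Tef, a transcription factor of the clock output, was at 14.74, 14.30, 14.25 and 14.14 in Foxa2+/- and 15.13, 15.48, 15.44 and 15.22 in Double-Het (0.96, SE 0.14, adjusted p = 0.00202). Per3 read 13.12, 12.29, 12.49 and 12.33 against 13.81, 14.06, 14.01 and 13.69 (1.33, SE 0.21, adjusted p = 0.00442). In both genes replicate 11 was the highest Foxa2+/- library and still lay below every Double-Het library. Dbp, the partner of Tef and the gene with the largest rise of any named gene, showed the same in a wider form: 13.10, 11.48, 11.36 and 11.30 in Foxa2+/- against 14.18, 14.33, 13.85 and 13.39 in Double-Het (2.13, SE 0.54, adjusted p = 0.047). The rise of Dbp failed in 6 of the 8 fits that left out a library, with an adjusted p of up to 0.159. Its wild-type libraries were scattered too, from 10.03 to 13.17, while Falcor-/- libraries held it at 13.19 to 14.01. Bhlhe41, a repressor that competes with Arntl, rose, with levels of 9.80 to 10.21 in Foxa2+/- and 10.89 to 11.40 in Double-Het (1.09, adjusted p = 0.0053).

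Arntl was at 10.42, 11.44, 10.94 and 11.16 in Foxa2+/- and 9.25, 9.10, 9.56 and 10.09 in Double-Het (-1.49, SE 0.30, adjusted p = 0.0161). Falcor-/- libraries held Arntl at 9.15 to 9.91, inside the range of Double-Het, and wild type at 10.09 to 11.47. Npas2, the stand-in for Clock, differed by -1.65 (adjusted p = 0.0402) and Nfil3, which opposes Dbp and Tef at shared sites, by -1.11 (adjusted p = 0.0326). Clock itself (-0.59), Per1 (-0.23), Per2 (0.84), Nr1d1 (-0.19) and Nr1d2 (0.57) did not pass. Tef, Per3 and Bhlhe41 passed in all 8 fits that left out a library. The count of 8 fell to 3 without Foxa2+/- replicate 13 or without Double-Het replicate 15 or 16, to 4 without Double-Het replicate 17 and to 5 without Foxa2+/- replicate 12 or 14. With the macrophage mean as a covariate Tef alone passed (1.01, adjusted p = 0.0488).

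The start regions of 3 of the genes that rose are shown for their matches to an E-box, the site class of Arntl with Clock, or a D-box, the site class of Dbp, Tef and Nfil3. They come from the same RefSeq table and are written in the same way, with both motifs in capitals: Per3 at chr4:151044666-151044915 (- strand), Bhlhe41 at chr6:145865421-145865670 (- strand) and Tef at chr15:81802423-81802672 (+ strand, the first of 2 listed starts).
Per3: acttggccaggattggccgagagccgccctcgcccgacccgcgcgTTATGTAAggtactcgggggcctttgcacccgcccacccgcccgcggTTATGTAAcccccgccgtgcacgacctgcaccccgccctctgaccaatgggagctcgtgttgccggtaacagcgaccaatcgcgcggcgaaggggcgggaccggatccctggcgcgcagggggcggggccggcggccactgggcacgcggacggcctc
Bhlhe41: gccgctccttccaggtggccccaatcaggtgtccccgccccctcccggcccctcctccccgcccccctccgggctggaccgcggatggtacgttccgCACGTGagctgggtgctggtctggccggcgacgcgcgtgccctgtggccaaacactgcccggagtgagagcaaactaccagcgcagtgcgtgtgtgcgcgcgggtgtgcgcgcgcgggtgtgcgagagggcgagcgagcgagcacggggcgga
Tef: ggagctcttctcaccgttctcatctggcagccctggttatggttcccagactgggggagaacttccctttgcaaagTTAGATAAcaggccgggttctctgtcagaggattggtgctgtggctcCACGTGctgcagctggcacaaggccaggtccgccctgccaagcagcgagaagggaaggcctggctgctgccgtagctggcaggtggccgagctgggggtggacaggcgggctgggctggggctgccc
The E-box searched was CACGTG and the D-box TTANNTAA, each on both strands. Per3 held D-boxes at bases -205 to -198 and -158 to -151, Bhlhe41 an E-box at -153 to -148, and Tef a D-box at -174 to -167 and an E-box at -127 to -122. Of the 5 genes that rose, 4 had an entry, and 2 of these held an E-box and 2 a D-box. The 3 genes that fell held no match to either, and among 9 entries of genes that did not pass, 3 held an E-box (Ciart, Cry1 and Per1) and none a D-box. Over all 32851 regions the shares were 6.02% for the E-box and 5.43% for the D-box. Here too listed genes were counted over all their starts and these shares over single regions. The genes were listed as clock genes, so a higher share among them is no result about the rises.

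**Figure D4:**
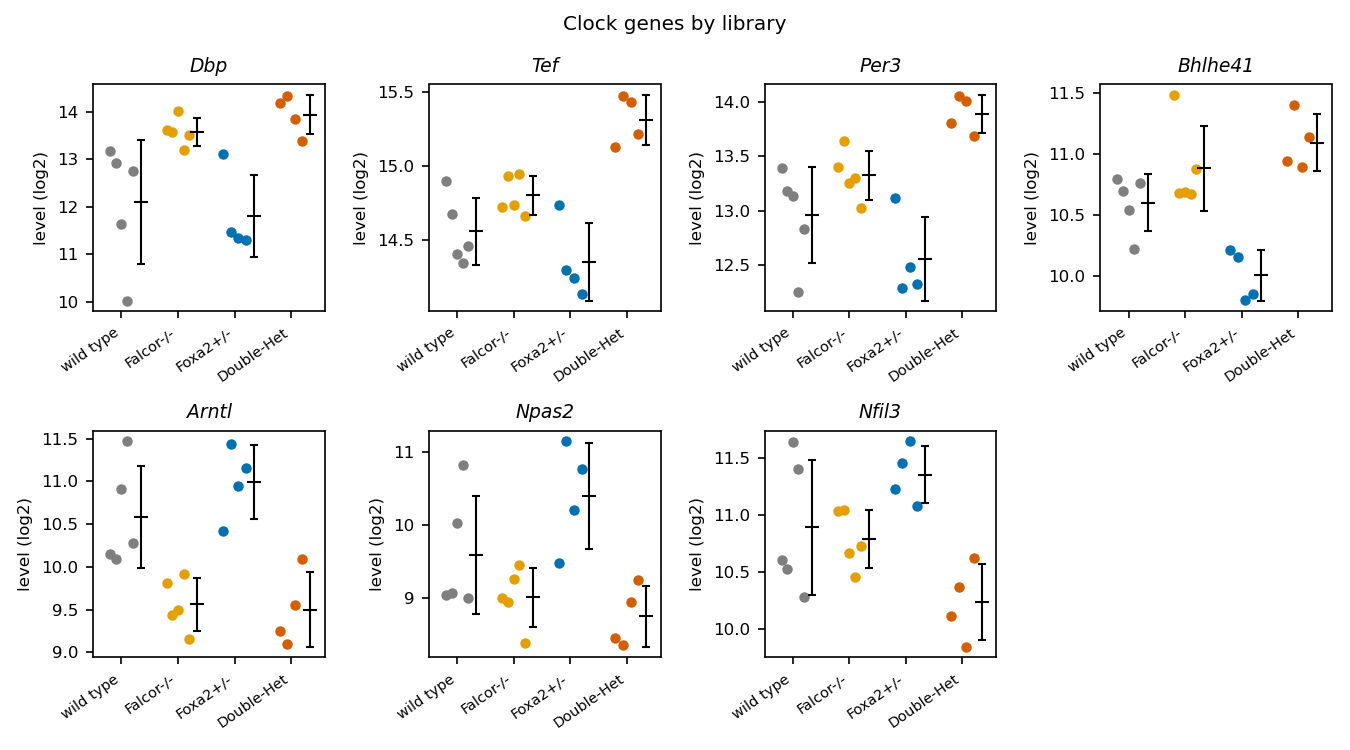
Levels of 7 clock genes in log2 units (vertical axis) by genotype (horizontal axis), 1 point per library with the mean and SD beside them. Dbp, Tef, Per3 and Bhlhe41 are higher and Arntl, Npas2 and Nfil3 lower in Double-Het than in Foxa2+/-, and Foxa2+/- replicate 11 (the leftmost blue point) is the Foxa2+/- library nearest to Double-Het for Dbp, Tef and Per3.

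Immediate early genes, which cells switch on within minutes of a stimulus and also while a tissue is taken apart, held no rise. Of 29 tested, 7 fell, none rose and 22 did not pass, with a median difference of -0.44, where 1.37% of all genes fell. Fos, a subunit of the AP-1 transcription factor, was at 16.48, 16.29, 16.38 and 16.29 in Foxa2+/- and 15.93, 15.72, 15.92 and 15.70 in Double-Het (-0.54, SE 0.11, adjusted p = 0.0187). Its groups did not overlap, but both wild type, at 15.77 to 16.31, and Falcor-/-, at 16.07 to 16.50, reached into the Foxa2+/- range. Dusp1, a phosphatase that shuts off MAP kinases, read 15.90, 15.87, 15.99 and 15.81 against 15.26, 15.01, 15.11 and 14.86 (-0.83, SE 0.16, adjusted p = 0.0133), and its relative Dusp2 fell by 1.19 on the log2 scale. Klf4 and Klf6, zinc finger factors, differed by -0.77 and -0.44, the bZIP factor Maff by -0.70 and Jun, the partner of Fos, by -0.39, with adjusted p values between 0.0213 and 0.0489. Egr1, Atf3, Junb, Myc and Nr4a1 did not pass (-0.48, -0.79, -0.34, -0.43 and -0.53). None of the 7 passed in all 8 fits that left out a library. Without Foxa2+/- replicate 13 limma called 0 of the 29, with 12 at an unadjusted p below 0.05; the count was 2 without Foxa2+/- replicate 14 or Double-Het replicate 16 or 17, 3 without Foxa2+/- replicate 11 or Double-Het replicate 18, and 4 without Double-Het replicate 15. With the macrophage mean as a covariate it was 0, with 15 at an unadjusted p below 0.05.

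Among 22 tested genes of Hedgehog and FGF signalling, Dusp6, Spry4 and Etv1 fell, Fgfr3 rose and 18 did not pass, where 2.43% of all genes changed. The median was 0.03. Dusp6, a phosphatase of the MAP kinase ERK that ERK itself induces, was at 13.37, 13.30, 13.44 and 13.27 in Foxa2+/- and 12.66, 12.73, 12.65 and 12.51 in Double-Het, with groups far apart for their spread (-0.71, SE 0.09, adjusted p = 0.000865). It passed in all 8 fits that left out a library, with an adjusted p of at most 0.00666, whereas Spry4 failed in 2 of them, Fgfr3 in 4 and Etv1 in 7. The count of 4 was 1 without Foxa2+/- replicate 13 or Double-Het replicate 16, and 2 without Foxa2+/- replicate 14 or Double-Het replicate 17 and in the fit to these 2 genotypes alone. Spry4, an inhibitor of the same pathway, differed by -1.28 (adjusted p = 0.0198), and the transcription factor Etv1 by -0.80 (adjusted p = 0.0466). Fgfr3, an FGF receptor, rose by 0.53 (adjusted p = 0.0344). The other inhibitors Spry1 and Spry2 differed by -0.01 and 0.03, and Shh and its receptor Ptch1 by 0.54 and 0.04, without passing.

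Among 35 genes of TGF-beta signalling and mesenchymal transition, 3 fell and none rose, with a median of -0.15, where 1.37% of all genes fell. Snai1, a repressor of epithelial genes, was at 7.80, 7.37, 7.69 and 7.94 in Foxa2+/- and 6.41, 6.50, 6.60 and 6.45 in Double-Het, where wild type ran from 7.87 to 8.23 and Falcor-/- from 7.85 to 8.84, so that Double-Het lay below all 14 other libraries (-1.21, SE 0.19, adjusted p = 0.00399). The secreted matrix proteins Tgfbi and Ccn1 differed by -0.84 and -1.09 (adjusted p = 0.0181 and 0.026), and the Ccn1 libraries touched at 12.31. Snai1 passed in all 8 fits that left out a library, while Tgfbi failed in 3 and Ccn1 in 5. The count of 3 was 1 without Foxa2+/- replicate 13 or Double-Het replicate 17 and in the fit to these 2 genotypes alone. Of 30 mesenchymal genes, which mark fibroblasts and muscle in such a preparation, only the neighbouring collagen VI genes Col6a2 (-1.70, adjusted p = 0.00251) and Col6a1 (-1.63, adjusted p = 0.00627) fell, and the median was -0.72. That median lay below the -0.64 of the macrophage list. Of the 30, 25 had a negative difference, 3 of them without overlap, where 54.2% of all genes tested had a positive difference and 5.38% lay lower without overlap. The mesenchymal mean overlapped between the groups, at 9.02 to 10.57 in Foxa2+/- and 8.82 to 9.22 in Double-Het, as did the endothelial mean, at 10.15 to 10.57 and 9.59 to 10.26. The part of these cells in the results was not tested beyond the covariate fits given with the alternatives.

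Interferon and antigen presentation genes were mixed. Of 39 interferon-response genes, Cxcl10, Oas2 and Gbp3 fell and Tap1 rose, with a median of -0.03, where 2.43% of all genes changed. Cxcl10, a T cell chemokine, was at 9.26, 7.68, 8.54 and 7.52 in Foxa2+/- and 6.97, 5.56, 6.48 and 5.18 in Double-Het (-2.20, SE 0.43, adjusted p = 0.0133), with the groups separated. The antiviral enzyme Oas2 differed by -1.49 (adjusted p = 0.0339), with overlap between the groups, and the guanylate-binding protein Gbp3 by -0.99 (adjusted p = 0.0184). Both belong to families of similar genes whose reads can be shared. Tap1, which loads peptides for MHC class I, rose by 0.53 (adjusted p = 0.0452). The fits that left out a library lost Cxcl10 in 1 of 8, Gbp3 in 2, Oas2 in 5 and Tap1 in 7. In limma the count of 4 was 0 without Foxa2+/- replicate 13 (9 at an unadjusted p below 0.05) and in the fit to these 2 genotypes alone (10), 1 without Double-Het replicate 17 and 2 without Foxa2+/- replicate 14. H2-Oa, part of a regulator of MHC class II loading, was the only one of 13 class II genes to pass (1.01, adjusted p = 0.0405), and failed in all 8 fits that left out a library, with an adjusted p of up to 0.137. H2-Q1, a class I gene with near-identical relatives, read 9.80, 9.54, 10.07 and 9.32 against 4.83, 4.99, 3.76 and 8.52 (-4.16, adjusted p = 0.0247), with replicate 18 far above the other 3 Double-Het libraries, and 4.33 to 7.96 in Falcor-/-. Its fall failed in 4 of these 8 fits. The Double-Het mean of H2-Q1, 5.52, lay under the minimum of 6, which this gene passed through libraries of other genotypes.

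The epithelial lists held few changed genes or none, although a gene of type 1 cells outside the list, Gramd2, rose and is given further on. In limma, 0 of 21 alveolar type 2 genes passed, with 0 at an unadjusted p below 0.05; 0 of 19 alveolar type 1 genes (1 unadjusted), 0 of 20 club cell genes (3), 0 of 18 mucous cell genes (2), 0 of 15 basal cell genes (2) and 0 of 34 junction genes (5). Their medians were -0.05, 0.08, 0.27, 0.18, -0.03 and 0.07. The surfactant gene Sftpc stood at 18.73, the highest level in the files, in every Double-Het library, so a rise of it there could not be read. Genes near that level had little room to rise, which limits what the lack of calls says about them. The surfactant lipid transporter Abca3 differed by -0.28 (adjusted p = 0.4), the water channel Aqp5 of type 1 cells by 0.33 (adjusted p = 0.293) and the club cell enzyme Aldh1a1 by 0.48 (adjusted p = 0.186). Clca1, a secreted product of mucous cells, had a wide spread, 10.58, 4.51, 8.23 and 4.95 in Foxa2+/- and 11.03, 9.21, 11.94 and 10.98 in Double-Het, and its difference of 3.72 did not pass (adjusted p = 0.15). The mucous regulator Spdef and the mucin Muc5b differed by 0.27 and -0.16 without passing.

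Ciliated cell genes had the highest median of the lists, 0.48, with a positive difference in 38 of 40 genes, where 54.2% of all genes tested had one. Only Myb and Dynlrb2 passed. Myb, a transcription factor of early multiciliated cells, was at 11.62, 11.59, 11.09 and 11.33 in Foxa2+/- and 12.14, 12.31, 12.22 and 11.74 in Double-Het (0.70, SE 0.16, adjusted p = 0.034), and Dynlrb2, a dynein light chain, rose, with levels of 11.44 to 12.32 in Foxa2+/- and 12.39 to 13.29 in Double-Het (0.89, adjusted p = 0.0469). Each failed in 5 of the 8 fits that left out a library. In limma the count of 2 was 0 without Foxa2+/- replicate 13 (15 at an unadjusted p below 0.05) or 14 (23), without Double-Het replicate 15 or 16 (20 each) and with the endothelial (22), mesenchymal (26) or macrophage (16) mean as a covariate; it was 1 without Double-Het replicate 17 and 20 with library weights. The master regulator Foxj1 differed by 0.46 and did not pass. In 19 of the 40 genes all Double-Het libraries lay above all Foxa2+/- libraries, against 6.54% of all genes. The genes of this list share the cells they come from and are not independent of each other. Mostly positive differences were not particular to ciliated genes. They were found in 42 of 43 cytosolic ribosomal protein, 39 of 40 oxidative phosphorylation and 31 of 32 proteasome genes. The medians of these lists were 0.16, 0.15 and 0.12. Among 20 club cell genes, 18 had a positive difference (median 0.27).

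The remaining lists each held 1 changed gene or none. Ddc, the enzyme that makes serotonin and dopamine and a marker of neuroendocrine cells, rose by 1.15 (adjusted p = 0.022), the antioxidant enzyme Nqo1 by 0.92 (adjusted p = 0.0422) and the ribosomal protein gene Rps2, which has many pseudogenes, by 0.78 (adjusted p = 0.0324). The co-chaperone Bag3 fell by 0.60 on the log2 scale (adjusted p = 0.00627), the cell cycle inhibitor Cdkn1a by 0.89 (adjusted p = 0.00857) and Il4ra, the receptor of type 2 cytokines, by 0.72 (adjusted p = 0.0429). Bag3 and Cdkn1a passed in all 8 fits that left out a library, while Ddc failed in 4, Nqo1 in 6, Rps2 in 7 and Il4ra in 8. Ddc did not pass in the fit to these 2 genotypes alone. Not every such gene went with its list. Of 14 neuroendocrine genes, 6 had a positive and 8 a negative difference, with a median of -0.11. Positive differences made up 30 of 38 for cell cycle genes and 10 of 16 for type 2 inflammation genes (medians 0.13 and 0.17). Klf4, named above, was the only one of 34 epithelial transcription factors to pass. In limma, 0 of 31 Notch genes (7 at an unadjusted p below 0.05), 0 of 38 Wnt genes (9), 0 of 35 lipid synthesis genes (3), 0 of 40 oxidative phosphorylation genes (1), 0 of 32 proteasome genes (0), 0 of 20 lymphocyte genes (5), 0 of 7 cardiac muscle genes (1) and 0 of 8 sex-linked genes (0) passed. Lef1, a transcription factor of the Wnt pathway, came nearest at 1.44 (adjusted p = 0.0553), followed by the Wnt inhibitor Wif1 at 0.82 (adjusted p = 0.0566).

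**Figure D5:**
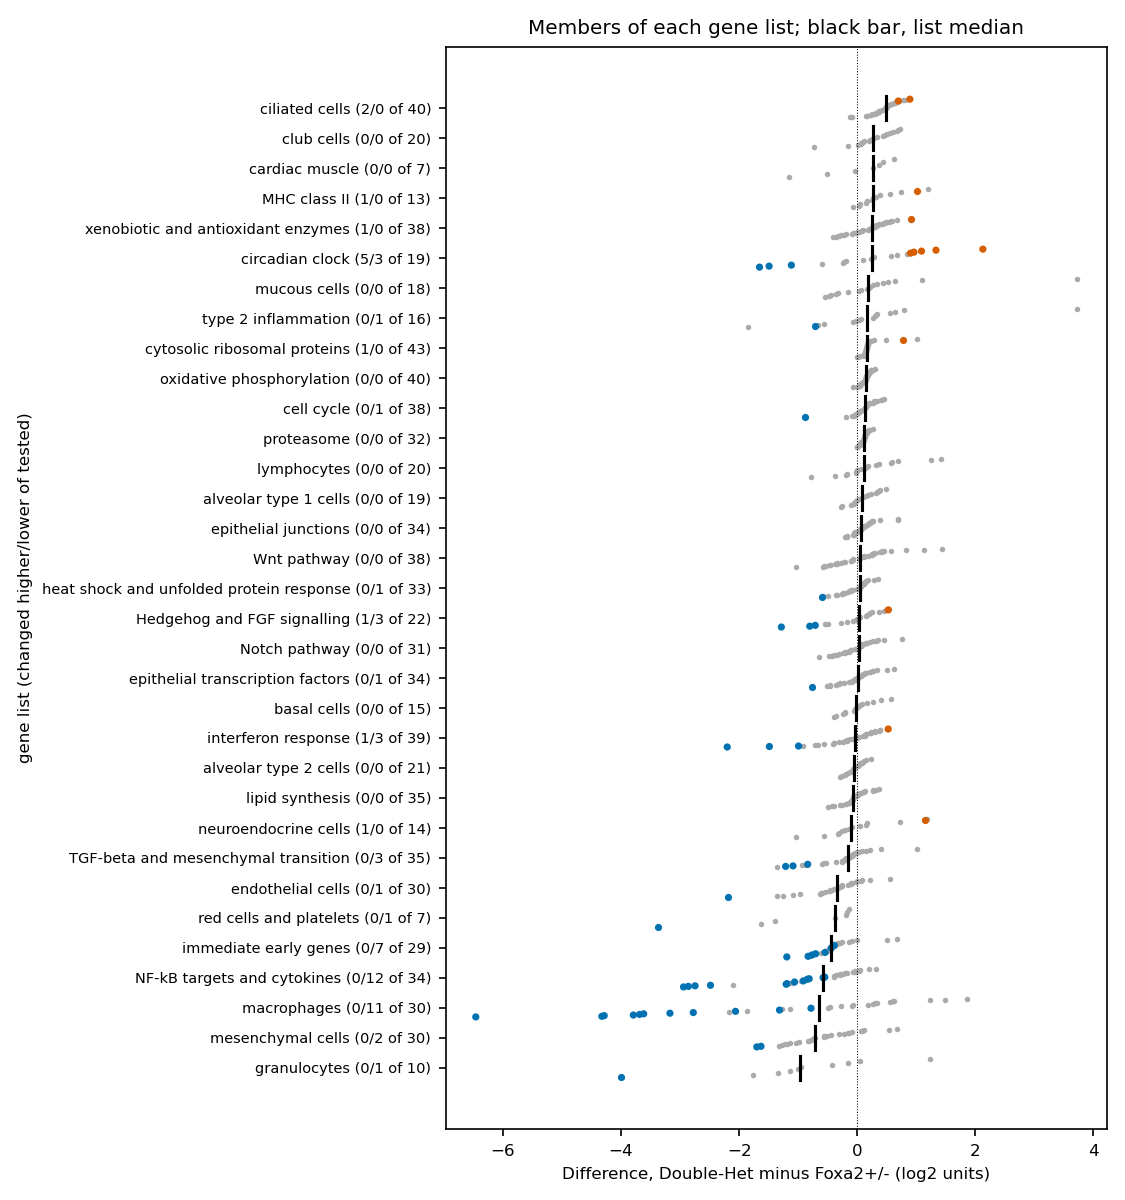
Each row is a gene list with its number of genes changed higher and lower of those tested; each point is a gene at its Double-Het minus Foxa2+/- difference in log2 units, orange where it rose, blue where it fell and grey where it did not pass, and the black bar is the list median. Macrophage, NF-kB and immediate early genes hold blue points only, clock genes both colours, and ciliated genes the median farthest to the right, 0.48.

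The genes with the largest rises beyond the clock belonged to no list and were of many kinds. Rims2, a scaffold of regulated secretion, was at 5.32, 5.91, 5.42 and 5.37 in Foxa2+/- and 7.18, 6.92, 7.54 and 7.39 in Double-Het (1.75, SE 0.34, adjusted p = 0.0122). Ak4, a mitochondrial adenylate kinase, rose, with levels of 8.39 to 9.06 in Foxa2+/- and 9.44 to 10.39 in Double-Het (1.36, adjusted p = 0.0144), over wild-type levels of 7.26 to 7.80. Prkag3, a subunit of the energy sensor AMPK, rose by 1.28 (adjusted p = 0.0113) and Cdkn1c, an imprinted inhibitor of the cell cycle, by 1.23 (12.41 to 12.99 against 13.40 to 14.33, adjusted p = 0.022). For Cdkn1c the Falcor-/- libraries, at 13.79 to 15.01, lay above all Foxa2+/- libraries too. Ces1g, a carboxylesterase of a family with similar members, rose by 1.24, Tmem178 by 1.34, Ly6g6c by 1.30, Smim5 by 1.22, Stk32a by 1.48 and Skint3, also of a family with similar members, by 1.71, with adjusted p values from 0.0112 to 0.0493. The Foxa2+/- means of Rims2 and Ly6g6c were 5.50 and 5.885. They lay under the minimum of 6, which these genes passed through libraries of other genotypes, Double-Het among them. Skint3 was above wild type, at 6.59 to 8.23, and Falcor-/-, at 6.01 to 8.26, in all 4 Double-Het libraries (9.73, 9.05, 8.63 and 9.66). The smallest p values among the rises, predicted genes left out, were those of Nrep, at 11.18, 10.68, 10.77 and 10.97 against 12.02, 11.83, 11.77 and 11.76 (0.95, SE 0.13, adjusted p = 0.00125), of Tef, of Gramd2, a gene of alveolar type 1 cells (0.62, adjusted p = 0.00251), and of Per3. Nrep lay at 11.43 to 11.99 in wild type and 11.69 to 11.99 in Falcor-/-, so that the Foxa2+/- libraries were the low ones. Of these rises, Rims2, Prkag3, Nrep and Gramd2 passed in all 8 fits that left out a library, and Skint3 in none of them; Ly6g6c and Stk32a failed in 7, Tmem178 in 6, Ces1g in 5, Cdkn1c in 3, Ak4 in 2 and Smim5 in 1.

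Where the wild type stood relative to both groups describes which of them departed from it. Of the 161 genes that rose, the wild-type mean lay between both group means for 122, below both for 31 and above both for 8, and it was nearer to Foxa2+/- for 112. Of the 209 that fell, it lay between for 158, above both for 48 and below both for 3, and it was nearer to Foxa2+/- for 163. The Falcor-/- mean was nearer to Double-Het for 123 of the 161 and 131 of the 209. These counts share the group means that chose the genes and are given as a description.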

How the data were processed

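The authors deposited 1 log2 level per gene for each of 18 RNA-seq libraries, 15544 genes in all. STAR, limma and the mm9 genome are named, without versions, per the submitters' processing notes. The tool that counted the reads, with its annotation and strand setting, is not given in the sources used here. Levels ran from 1 to 18.73, and at a given rank within the top 90% the libraries departed by at most 0.0512 log2 units, the pattern of quantile normalization. Such values hide a shift common to most genes, and depth cannot be recovered from them.

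Symbols came from GENCODE vM21 by Ensembl identifier (14994 matched, 550 did not). After removal of 295 genes with a mean below 6 over the 18 libraries, limma 3.58.1 (R 4.3.3) was run on the 18 libraries together with a mean for each genotype, empirical Bayes moderation and an intensity trend. The spread had 14 residual degrees of freedom and 17.0 after moderation. The contrast was Double-Het minus Foxa2+/-, two-sided, with Benjamini-Hochberg adjustment over 15249 genes and a threshold of 0.05. An exact permutation test over 70 regroupings of 4 against 4 libraries cannot give a p below 0.0286. The fit was tested on simulated data.

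Gene lists (35) are described by counts and medians without a test of the list. The members and lists were chosen with earlier results of these data known. Named genes are Foxa2, Falcor, the 12 largest rises and 12 largest falls among changed genes whose groups did not overlap, the 4 smallest p in each direction, and per list up to 4 changed members, or 2 of smallest p where none changed. The largest rises and falls skip sex genes, antigen receptor segments, pseudogenes and predicted genes. The same skip was applied to the smallest p, which the rule did not ask for, and took out the pseudogene Vcp-rs and the predicted gene Gm15411. The other changed members of the macrophage, NF-kB, clock and immediate early lists, further members given as not passing, and the genes of the closing section were named after their values were seen. A few list members enter the counts and medians but are not reported here by name.

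Promoter regions are RefSeq start regions on GRCm38.p6, matched by symbol; since the libraries were aligned to mm9, these coordinates belong to the RefSeq table alone. Alternatives were other filters, a fit to the 2 genotypes only, no intensity trend, library weights, endothelial, mesenchymal and (added later) macrophage means as covariates, and leaving out each of the 8 libraries.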

Additional observations from a re-analysis of the deposited data

Results flagged for a closer look

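In 13 of 266 groups of 4 libraries, formed by each named gene or list mean within Double-Het or Foxa2+/-, the highest or lowest library stood apart by a gap that, as a share of the group's range, passed Dixon's 95% critical value. By chance this happens in about 1 group of 20. Of these, 10 were in Foxa2+/- and 3 in Double-Het.

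Foxa2+/- replicate 11 held the high values of Dbp (13.10, others 11.30 to 11.48) and of Ak4 (9.059, others 8.385 to 8.442), both on the side of Double-Het. It also held the low value of Phf24 (9.906, others 10.78 to 10.92), again on the side of Double-Het. Foxa2+/- replicate 12 was high for Rims2 (5.909), Mmp9 (9.817) and Nqo1 (10.48) and low for Klf4 (13.70, others 14.11 to 14.15). Foxa2+/- replicate 13 was low for the integrin Itgb4 (11.98, others 12.49 to 12.59), which did not pass between the groups, and high for Bag3 (12.69). Aoah was low in Foxa2+/- replicate 14 (6.965) and lower than the rest of its group in Double-Het replicate 17 (1.305, others 4.408 to 4.826). Saa3 was high in Double-Het replicate 16 (8.056, others 6.857 to 7.003). The mean of the cardiac muscle list was high in Double-Het replicate 17 (9.512, others 9.254 to 9.279).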

How the results depend on the processing

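No paired analysis was possible because the replicate numbers run from 1 to 18 and no number stands in both groups. The 370 changed genes became 384 without the filter on low levels, 310 with a mean of 8 or more, 323 without the intensity trend, 261 in a fit to these 2 genotypes alone (96 higher), 249 with the endothelial mean as covariate (90 higher), 339 with the mesenchymal mean and 2125 with library weights (1175 higher and 950 lower; 305 by at least 1 log2 unit, 1127 without overlap). With the macrophage mean as covariate, chosen after the data were seen, 27 passed (7 higher, 20 lower; 17 by at least 1 log2 unit, 23 without overlap), 23 of them among the 370, and 2185 genes had an unadjusted p below 0.05. The median SE rose from 0.145 to 0.187 in that fit. Of the 370, 197 also passed in the fit to these 2 genotypes alone, 216 with the endothelial mean and 244 with the mesenchymal mean. In the fit to these 2 genotypes alone, 15 of the 66 named changed genes were lost. Leaving out a library gave 90 to 381 changed genes, 31 to 169 higher and 59 to 212 lower, 59 to 165 by at least 1 log2 unit and 89 to 377 without overlap. List counts over these fits were 0 to 5 for immediate early genes, 3 to 9 for the clock, 6 to 10 for NF-kB and 4 to 11 for macrophages. Of the 10 macrophage genes that passed without Foxa2+/- replicate 11, 1 was higher, as was 1 of 16 with library weights. Immediate early genes also numbered 4 with the mesenchymal mean and 0 with the macrophage mean, clock genes 5 with the endothelial and 1 with the macrophage mean, NF-kB genes 1 and macrophage genes 0 with the macrophage mean. Differences near 0 changed sign: Foxa2 to 0.0334 with library weights and to 0.0497 without Double-Het replicate 18; Falcor to 0.0781 and 0.0764 with the endothelial and mesenchymal means, to 0.0647 with the macrophage mean, to 0.00816 without Double-Het replicate 18 and to 0.0443 without Foxa2+/- replicate 12; and Aqp5 to -0.0483 with the macrophage mean. Over the fits without a library, Foxa2 ran from -0.106 to 0.0497 and Falcor from -0.122 to 0.0443. The cause was not tested. Of the 66 named changed genes, 32 passed without Foxa2+/- replicate 13, 11 with the macrophage mean, and none changed sign in any of these fits. With 4 libraries a group and unknown depth, small differences were not detectable.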

Other observations

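Other genes known from macrophages fell with those described, among them Igf1, a growth factor (8.64, 8.33, 8.63 and 8.35 in Foxa2+/- against 5.70, 4.75, 5.68 and 6.02 in Double-Het, -2.95, limma adjusted p = 0.000701), the transcription factor Maf (-2.91, adjusted p = 0.00251), the cytokine Il10 (-2.40, adjusted p = 0.0298), the metal transporter Slc11a1 (-2.53, adjusted p = 0.0053) and the chemokine Ccl7 (-2.22, adjusted p = 0.0133). They are in none of the lists and were picked for their falls.

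Genes that glucocorticoid hormones are known to induce were put in a list after the values were seen. Of 18, 6 fell and none rose, with a median of -0.47: Fkbp5, which feeds back on the glucocorticoid receptor (14.07, 13.75, 14.36 and 13.90 against 12.92, 13.38, 12.33 and 13.17, -1.07, limma adjusted p = 0.0247), Ddit4 (-0.75, adjusted p = 0.022), Cdkn1a, Dusp1, Nfkbia and Pdk4, of which Cdkn1a, Dusp1 and Nfkbia also stand in lists described above. Zbtb16 and Tsc22d3 did not pass (-1.16 and -0.39). The share of all genes tested that fell was 1.37%. In a list of 19 fatty acid and fasting genes, chosen in the same way, Pdk4, which holds back glucose oxidation, fell, with levels of 10.92 to 11.98 in Foxa2+/- and 9.50 to 10.46 in Double-Het (-1.73, adjusted p = 0.00632), Acot2 with levels of 12.07 to 12.55 and 10.96 to 11.59 (-1.10, adjusted p = 0.00251) and Angptl4 with levels of 10.79 to 11.91 and 8.65 to 10.62 (-1.81, adjusted p = 0.0408). The list's median was -0.23. Cpt1a did not pass (-0.26).

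The smallest p of all genes belonged to Vcp-rs, a processed pseudogene of Vcp on the X chromosome, at 12.50, 12.55, 12.37 and 13.37 in Foxa2+/- and 9.81, 9.52, 9.57 and 9.41 in Double-Het (-3.12, limma adjusted p = 1.27e-05). Wild type held it at 12.35 to 13.30 and Falcor-/- at 12.45 to 13.31, so Double-Het was below all other libraries. Its reads can be shared with Vcp, a gene on chromosome 4 that differed by 0.42 (adjusted p = 0.0635). Phf24 and Enho are on chromosome 4 too, and Enho fell, with levels of 9.13 to 10.06 in Foxa2+/- and 6.0 to 7.23 in Double-Het (-2.69, adjusted p = 0.00251).

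The T cell receptor constant genes Trbc1 (1.44, adjusted p = 0.0283) and Trbc2 (1.42, adjusted p = 0.0337) rose, while the T cell gene Cd3g (1.26, adjusted p = 0.102) and Cd4 (-0.78, adjusted p = 0.0641) did not pass. Usp2, a deubiquitinase known as a clock output gene outside the list of clock genes, rose by 0.84 (10.89 to 11.41 against 11.76 to 12.39, adjusted p = 0.00627). Of the 370 changed identifiers, 15 had no symbol. ENSMUSG00000076743 rose by 4.94, with 2.69, 2.68, 6.39 and 2.20 in Foxa2+/- and 8.65, 7.32, 8.60 and 9.15 in Double-Het, and wild type spread from 2.40 to 9.94. ENSMUSG00000073229 fell by 4.08 on the log2 scale, yet Double-Het replicate 15 stood at 10.20, inside the Foxa2+/- range of 9.77 to 10.66, and the other 3 at 3.76 to 6.12. Falcor-/- held it at 3.71 to 5.13.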
